A study of Mus musculus with 29 samples.

Results

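The comparison asked how gene expression differed between hydroxyurea-treated and untreated nuclear transfer embryos once embryos with high levels of 2-cell-stage transcripts were set aside. Members were chosen by 1 measured value: the summed level of Sp110 and AF067063 in CPM (counts divided by the sum of the library's counts over genes without spike-in RNA and scaled as usual for that unit), which had to lie under 700 CPM. This kept 12 of the 17 embryos, 8 of 9 controls and 4 of 8 treated with hydroxyurea (HU), out of 29 libraries in the series. Each library was 1 whole embryo of the BDF1 strain, made by moving the nucleus of a somatic cumulus cell, one of the companions of the oocyte in the follicle, into an oocyte without its own nucleus. After activation for 6 h with 10 mM strontium, 5 ug/ml CB and 2 mM EGTA, which both groups received, embryos went at random into medium without HU (control) or with 10 uM HU for 24 h. All were collected 28 h after activation and sequenced by Smart-seq2, which copies whole transcripts without strand marks or molecular identifiers. The other 12 libraries were single cumulus cells. Days and donor females are not named in the labels, and p-values therefore measure only how these embryos spread, which may be technical.

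Hydroxyurea inhibits ribonucleotide reductase, the enzyme that makes deoxyribonucleotides from ribonucleotides, and so slows replication forks and activates the replication checkpoint. A mouse embryo enters the 2-cell stage on RNA stored in the oocyte and then starts its own transcription in a burst that includes short-lived 2-cell-stage transcripts such as those of the Zscan4 and Zfp352 genes. Cloned embryos must do so from a somatic nucleus and are known to vary from embryo to embryo in how far they get. Sp110 and AF067063 belong to this 2-cell-stage wave.

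The 8 kept controls had a summed level of Sp110 and AF067063 from 141 to 527 CPM, and the 4 kept HU embryos stood at 111 (HU 8), 114 (HU 6), 179 (HU 1) and 276 CPM (HU 2). The highest value inside the rule was 527 CPM in control 5 and the lowest outside was 901 CPM in HU 3. The other embryos over the threshold were HU 5 (1315 CPM), HU 4 (1670 CPM), control 3 (1800 CPM) and HU 7 (2328 CPM). Because the rule removed 1 control and 4 HU embryos, the effect of HU and the effect of choosing among the HU embryos cannot be told apart in what follows. These levels chose the embryos and are a description, with no test.

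**Figure D1:**
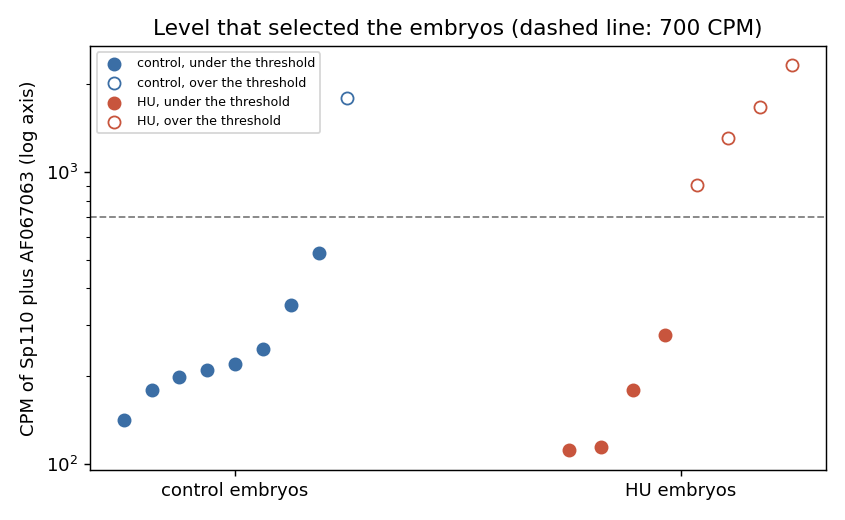
Summed CPM of Sp110 and AF067063 in each of the 17 embryos (log axis), with controls in blue, HU embryos in red, and open circles for embryos over the 700 CPM threshold (dashed line). The kept embryos lie between 111 and 527 CPM and the embryos left out between 901 and 2328 CPM.

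The 12 kept libraries held 2302767 to 3757492 gene counts. The kept HU embryos had 3194140 ± 549439 gene counts (SD, n = 4) and the controls 2741080 ± 420968 (SD, n = 8). Genes with at least 1 count numbered 15177 ± 210 in HU (SD, n = 4) against 14559 ± 324 in controls (SD, n = 8), a difference of 618 genes (2-sided exact permutation p = 0.0121, 0.0606 after adjustment over 5 library measures). With every embryo thinned to 2302767 counts the means were 14956 and 14453 genes (unadjusted exact permutation p = 0.0444), and each of the 4 HU embryos exceeded the median control. The thinned total includes Rn45s, whose share ran from 16.2% to 32.5% in the kept embryos, so the depth over other genes was not matched. Over all 17 embryos this difference was 138 genes (exact permutation p = 0.683). The other 4 measures had an adjusted exact permutation p of 0.298 or 0.517: gene counts, Rn45s (24.8% of counts in HU against 21.0%), mitochondrially encoded genes (3.56% against 4.04%) and gene counts per spike-in count (18.2 against 15.5). The embryos carried the RNA of an egg: the maternal genes Tcl1 and Omt2b averaged 7938 and 4255 CPM in controls and 6554 and 3097 CPM in HU (TMM-scaled CPM). Of 30 cumulus and granulosa markers 10 passed the filter on low counts. Their summed level was 106 to 215 CPM in controls and 132 to 189 CPM in HU, and Ptx3 and Ereg had no count in any kept embryo.

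The main test across all genes made no call in either direction. In edgeR's quasi-likelihood test of 12496 genes, 0 (0%) were higher and 0 (0%) lower in HU at an adjusted p under 0.05. At an unadjusted p under 0.05, 268 (2.14%) were higher and 255 (2.04%) lower, 4.19% in all. Scaling to spike-in counts in place of total RNA moved the all-gene median of the log2 fold change from 0.00 to 0.21, and the split to 486 higher and 45 lower, still with 0 adjusted calls. Of the genes tested, 39 (0.312%) had every HU embryo above every control and 28 (0.224%) had every HU embryo below. DESeq2 called 4 genes higher (0.034% of the 11753 it adjusted), namely Slc40a1, Tmed7, Pdxp and 1810062G17Rik, and 5 lower (0.0425%), namely Fscn1, Lclat1, Tmem120a, Rnf216 and Shq1. Limma-voom called 0 genes and had 468 higher and 274 lower genes before adjustment. With 4 embryos against 8, simulated data with 50 genes changed at each fold gave a recovery of 14% at 2-fold. It was 64% at 4-fold, 78% at 8-fold and 86% at 16-fold, so 2-fold differences would mostly be missed. With fewer changed genes than were simulated, the adjustment is stricter and recovery may be lower. Values below are given gene by gene as TMM-scaled CPM (CPM after edgeR's TMM scaling), and every edgeR adjusted p was above 0.05.

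**Figure D2:**
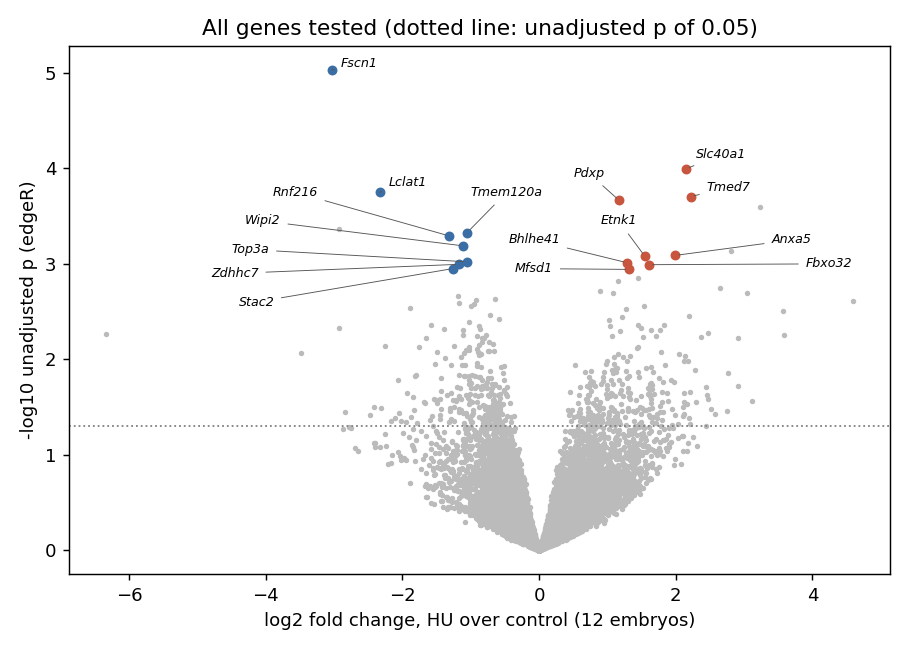
The log2 fold change of HU over control (x axis) against the -log10 of the unadjusted edgeR p (y axis) for the 12496 genes tested in the 12 kept embryos; the 8 genes per direction with the smallest p at a mean of at least 10 CPM are coloured and named. Fscn1 stands apart at the top left with the smallest p of all, and no gene passed an adjusted p of 0.05.

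Fscn1 encodes fascin, which bundles actin filaments, and had the smallest p of all genes. The kept HU embryos held 3.41 (HU 1), 12.9 (HU 2), 8.27 (HU 6) and 4.96 CPM (HU 8), while the controls ranged from 22.0 over a median of 61.1 to 114 CPM. All 4 HU embryos lay below the lowest control. The log2 fold change was -3.03 ± 0.51 (SE) with an edgeR adjusted p of 0.116, and 2.85e-07 in DESeq2. Among the alternatives the adjusted p ran from 2.85e-07 to 1, and edgeR's own call was made without control 4 (0.0400) and without a filter on low counts (0.0325). The embryos over the threshold did not show this low level: HU 3, 4, 5 and 7 stood at 52.5, 90.1, 51.3 and 41.7 CPM and control 3 at 41.7 CPM. Low Fscn1 was thus seen in the 4 kept HU embryos and in none of the other 4 HU embryos, and over all 17 embryos the log2 fold change was -0.86 ± 0.51 (SE). The gene lies on chromosome 5 (142960343 to 142973185, plus strand, GENCODE M21 on GRCm38). Its promoter window in RefSeq's GRCm38.p6 table, chr5:142960105-142960404 on the plus strand, is shown because the gene leads the comparison. It spans 250 bases before the start and 50 after, and the capitals mark a TATAAA, a sequence that 13.6% of the 32851 windows in the table hold on either strand.
Fscn1: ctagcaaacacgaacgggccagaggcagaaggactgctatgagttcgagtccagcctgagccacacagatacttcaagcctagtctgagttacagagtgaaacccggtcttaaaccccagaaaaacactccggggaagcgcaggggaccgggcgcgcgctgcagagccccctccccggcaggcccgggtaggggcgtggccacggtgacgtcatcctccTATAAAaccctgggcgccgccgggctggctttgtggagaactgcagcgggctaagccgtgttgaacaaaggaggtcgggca

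Lclat1, an acyltransferase that remodels cardiolipin, followed the same order. Its kept HU embryos held 5.90, 15.9, 10.8 and 9.15 CPM (HU 1, 2, 6 and 8), against 13.3, 46.1 and 108 CPM for the lowest, median and highest control. HU 1, 6 and 8 lay below every control and HU 2 lay above the lowest one. The log2 fold change was -2.33 ± 0.50 (SE, edgeR adjusted p 0.527, DESeq2 0.00290). In the embryos over the threshold the gene stood much higher, at 92.5 to 383 CPM in HU and 116 CPM in control 3, and the sign over all 17 embryos was the opposite (0.95 ± 0.65, SE).

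The other 6 genes of this direction were less far apart. Tmem120a, a membrane protein of the nuclear envelope, stood at 54.3, 74.9, 58.8 and 39.3 CPM in HU and from 75.6 to 169 CPM in controls, with no overlap. Rnf216, a ubiquitin ligase, stood at 39.4, 31.3, 19.4 and 27.4 CPM in HU against 42.4 to 119 CPM, again with no overlap. Top3a, a DNA topoisomerase that acts with the BLM helicase, stood at 36.3, 21.1, 51.9 and 34.3 CPM against 58.3 to 93.4 CPM. These 3 genes had log2 fold changes of -1.05, -1.32 and -1.06 and edgeR adjusted p values of 0.705, 0.705 and 0.750. For Wipi2, which acts in autophagosome formation, 3 of 4 HU embryos lay below the lowest control (70.5 to 157 CPM against 124 to 317 CPM). The same held for the palmitoyltransferase gene Zdhhc7 (30.7 to 47.1 CPM against 39.9 to 122 CPM) and for Stac2 (25.1 to 96.1 CPM against 74.2 to 149 CPM). Stac2 was highest in HU 8, and its log2 fold change of -1.26 became -1.83 without that embryo. Zdhhc7 overlaps Gm20388 and Gm15898 on the opposite strand and Lclat1 and Rnf216 each a pseudogene (Gm9311 and Gm43380), so their reads cannot be told apart without strand.

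**Figure D3:**
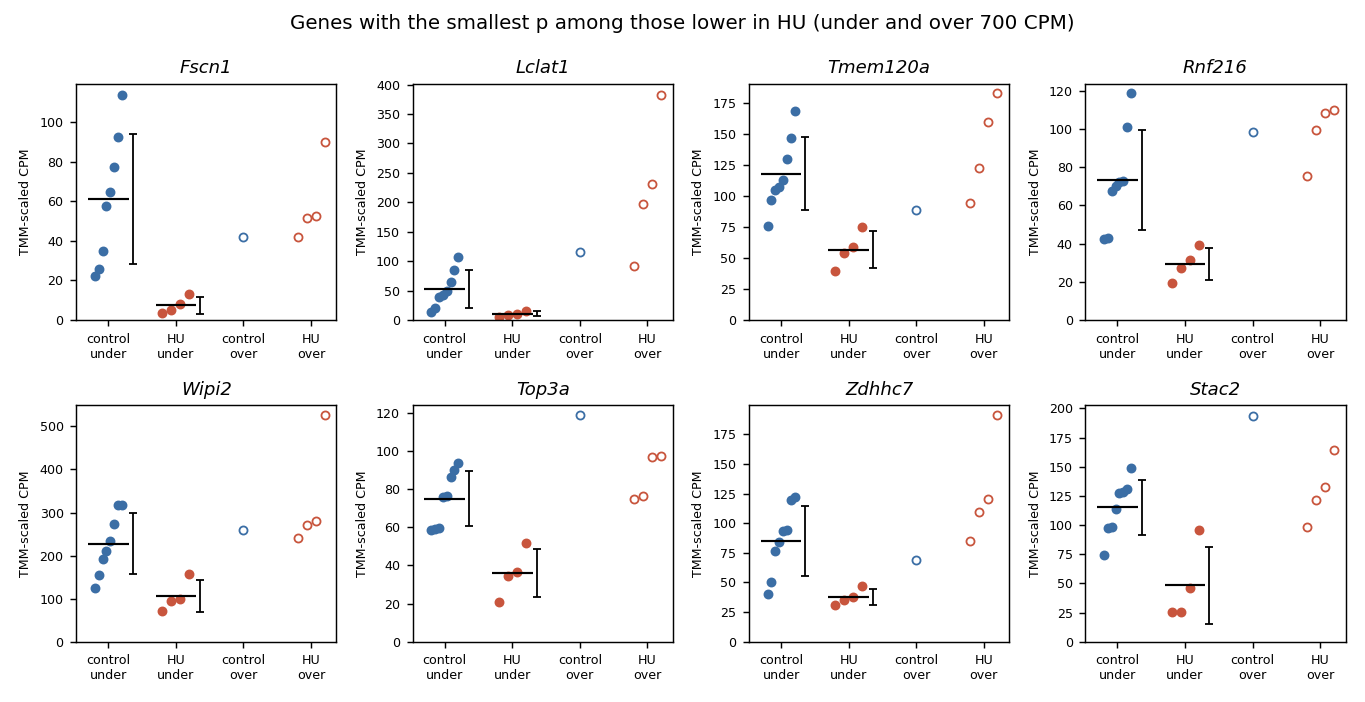
TMM-scaled CPM of the 8 genes with the smallest p among those lower in HU, in embryos under the 700 CPM threshold (filled circles) and over it (open circles), controls in blue and HU in red; bars show the mean and, beside it, 1 SD. In Fscn1, Tmem120a, Rnf216 and Top3a all 4 filled red circles lie under all 8 filled blue circles, and the open red circles lie higher.

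In the other direction Slc40a1 had the smallest p. It encodes ferroportin, the iron exporter of the plasma membrane. The kept HU embryos held 30.7, 54.1, 33.4 and 27.8 CPM, and the controls 2.56, 6.66 and 16.7 CPM (lowest, median, highest). All 4 HU embryos lay above every control, with a log2 fold change of 2.15 ± 0.44 (SE, edgeR adjusted p 0.527, DESeq2 0.0144). HU embryos over the threshold stood at 1.40 to 13.2 CPM and control 3 at 2.29 CPM, within the range of the kept controls or below it. The counts behind these values ran from 6 to 180 per kept embryo.

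Tmed7, a p24-family protein of transport between endoplasmic reticulum and Golgi, stood at 17.7, 26.2, 21.4 and 19.4 CPM in HU and at 1.93, 3.79 and 9.04 CPM in controls. The groups did not overlap (log2 fold change 2.22 ± 0.48, SE, edgeR adjusted p 0.527, DESeq2 0.0218). HU embryos over the threshold ranged from 8.59 to 20.2 CPM. Tmed7 shares its locus with Ticam2 on the same strand. Pdxp shares its strand and locus with another protein-coding gene, Gm49510, which may share its reads. It encodes pyridoxal phosphatase, which removes the phosphate from vitamin B6, and stood at 168, 176, 251 and 145 CPM in HU against 32.4, 93.6 and 108 CPM in controls. Here too all 4 HU embryos lay above every control (1.17 ± 0.26, SE, edgeR adjusted p 0.527, DESeq2 0.0340), and the HU embryos over the threshold stood between the groups at 111 to 127 CPM, with control 3 at 45.7 CPM. Etnk1, ethanolamine kinase, begins the synthesis of phosphatidylethanolamine. It stood at 40.0, 70.4, 26.8 and 16.0 CPM in HU and at 7.17, 12.3 and 23.5 CPM in controls, so that HU 8 overlapped control 6. The log2 fold change of 1.55 ± 0.39 (SE, edgeR adjusted p 0.750) was 1.08 without HU 2, and HU embryos over the threshold held 29.1 to 89.5 CPM. Etnk1 is overlapped by the antisense gene 1700126G02Rik. These 3 genes were known from a comparison of all 17 embryos, which shares these 12, so their direction here is no separate support. In that comparison 419 of 11476 genes (3.65%) were higher and 250 (2.18%) lower at an unadjusted edgeR p under 0.05. Their log2 fold changes over all 17 were 1.78 (Tmed7), 0.96 (Pdxp) and 1.85 (Etnk1).

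The promoter window of Pdxp (chr15:78913669-78913968, plus strand, RefSeq GRCm38.p6) is shown as the best expressed of the 4 genes that DESeq2 called higher. Capitals mark CCAAT and its reverse complement ATTGG, found on either strand in 37.4% of all windows. It also holds 29 CG pairs, against a median of 7 over all windows. This is not particular to Pdxp: windows of genes lower in HU exceeded that median too, such as Fscn1 (21), Rnf216 (22) and Wipi2 (40).
Pdxp: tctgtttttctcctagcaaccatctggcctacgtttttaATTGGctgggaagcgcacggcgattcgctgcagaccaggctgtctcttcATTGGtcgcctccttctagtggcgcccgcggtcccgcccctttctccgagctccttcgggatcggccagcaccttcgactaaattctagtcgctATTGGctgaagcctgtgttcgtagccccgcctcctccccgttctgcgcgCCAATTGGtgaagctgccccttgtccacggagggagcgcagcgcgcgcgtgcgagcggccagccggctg

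Anxa5, annexin A5, a calcium-dependent phospholipid-binding protein, stood at 181, 74.3, 56.2 and 58.3 CPM in HU (HU 1, 2, 6 and 8) and at 3.41, 28.3 and 40.1 CPM in controls. All 4 HU embryos lay above every control, with HU 1 far above the other 3, and the log2 fold change was 1.99 ± 0.50 (SE, edgeR adjusted p 0.750) or 1.44 without HU 1. HU embryos over the threshold held only 2.09 to 13.2 CPM. Its divergent neighbour 1810062G17Rik, named after its values were seen, starts 42 bases away on chromosome 3 and stood at 63.9, 3.91, 18.8 and 15.6 CPM in HU against 0 to 5.02 CPM in controls. In both genes HU 1 was the highest embryo. The log2 fold change of 1810062G17Rik was 3.23 ± 0.72 (SE, edgeR adjusted p 0.527, DESeq2 0.0232). The Anxa5 window (chr3:36475838-36476137, minus strand, RefSeq GRCm38.p6) is shown because it is partly the promoter window of the neighbour too: the capitals mark the 149 bases that both windows share, read on opposite strands.
Anxa5: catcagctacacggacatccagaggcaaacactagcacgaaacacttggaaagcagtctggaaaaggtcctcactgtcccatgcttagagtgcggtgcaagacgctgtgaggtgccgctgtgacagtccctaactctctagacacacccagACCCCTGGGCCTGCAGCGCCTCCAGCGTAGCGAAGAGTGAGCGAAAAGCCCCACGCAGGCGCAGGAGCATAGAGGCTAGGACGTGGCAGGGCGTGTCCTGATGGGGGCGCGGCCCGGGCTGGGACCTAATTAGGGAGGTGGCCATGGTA

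Bhlhe41, a repressor of the circadian clock, stood at 80.0, 155, 91.9 and 73.2 CPM in HU against 16.6 to 59.3 CPM in controls, with no overlap. Fbxo32, the ubiquitin ligase subunit atrogin-1, stood at 32.0, 21.1, 44.5 and 80.1 CPM against 6.78 to 30.8 CPM, and HU 2 overlapped the controls. Mfsd1, a lysosomal transporter, stood at 92.5, 194, 61.1 and 117 CPM against 20.9 to 80.8 CPM, and HU 6 overlapped. Their log2 fold changes were 1.29, 1.61 and 1.32, with edgeR adjusted p values of 0.750, 0.750 and 0.751. In HU embryos over the threshold these genes ranged from 18.9 to 74.3 CPM (Bhlhe41), from 5.06 to 10.9 CPM (Fbxo32) and from 40.8 to 75.9 CPM (Mfsd1). Bhlhe41 and Fbxo32 are overlapped on the opposite strand by Gm43909 and Gm15943, whose reads cannot be told apart without strand. Several of the higher genes were also present in the 12 cumulus cells, whose pooled level was 323 CPM for Anxa5, 87.8 CPM for Slc40a1, 64.2 CPM for Fbxo32 and 48.5 CPM for Mfsd1, while Pdxp had no count there and Bhlhe41 stood at 0.374 CPM. All 8 lower genes had counts in the same cells too, from 6.19 CPM for Stac2 over 55.2 CPM for Wipi2 to 73.0 CPM for Fscn1. The summed cumulus markers overlapped between the groups, and the part of donor RNA in these differences was not tested.

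**Figure D4:**
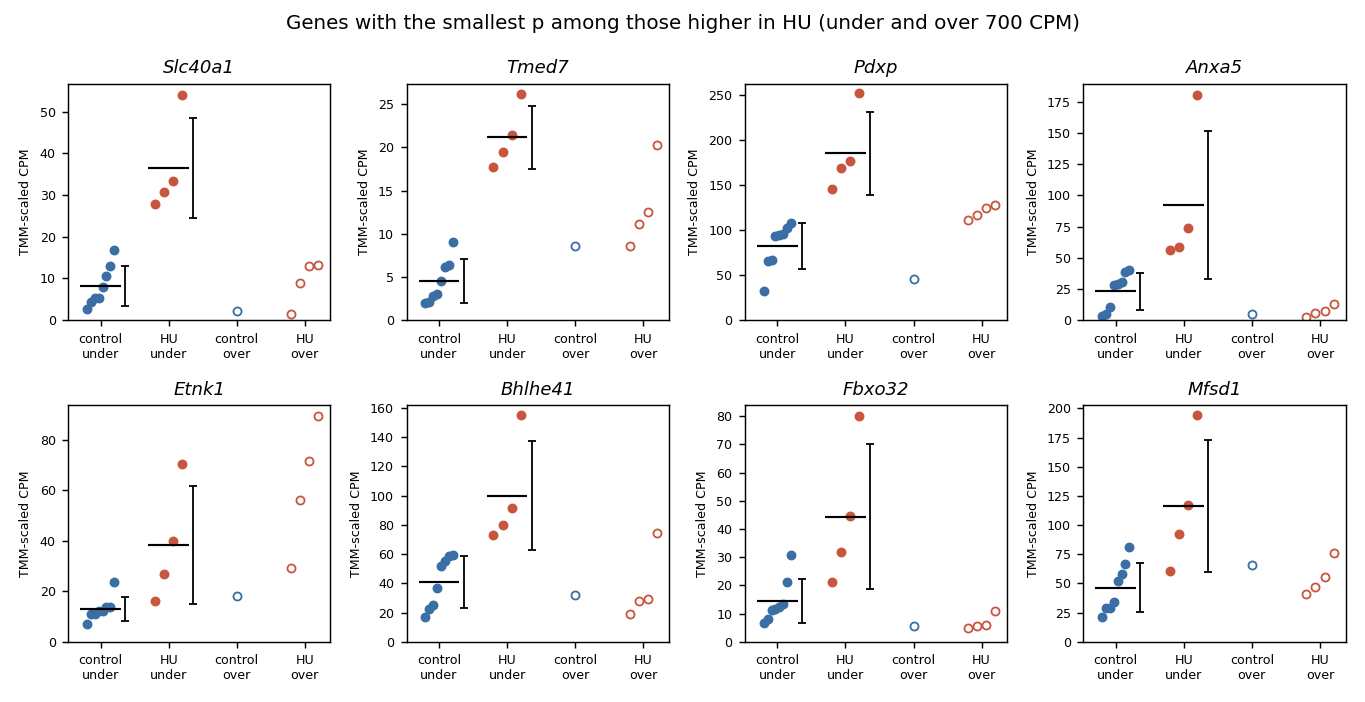
TMM-scaled CPM of the 8 genes with the smallest p among those higher in HU, in embryos under the 700 CPM threshold (filled circles) and over it (open circles), controls in blue and HU in red; bars show the mean and, beside it, 1 SD. In Slc40a1, Tmed7, Pdxp, Anxa5 and Bhlhe41 all 4 filled red circles lie above all 8 filled blue circles, and the open red circles of Anxa5 and Fbxo32 lie at or under 13.2 CPM.

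To ask whether HU differences depended on the side of the threshold, the difference in the kept embryos was tested against that in the embryos left out, in 1 fit of all 17 embryos with an interaction term. This test was added after the data were seen and rests on control 3 as the only control over the threshold. Of 11476 genes 0 (0%) passed an adjusted p of 0.05, the smallest being 0.816, and 524 (4.57%) had an unadjusted p under 0.05. For Fscn1 the HU difference was higher over the threshold than under it by 3.50 ± 1.02 (log2, SE, unadjusted edgeR p 0.00232). The same difference was positive for all 8 of the lower genes, from 0.57 ± 0.52 for Top3a to 3.26 ± 1.04 for Lclat1 and 3.50 for Fscn1. It was negative for 6 of the 8 higher genes: -0.21 ± 1.38 for Slc40a1, -1.09 ± 0.79 for Bhlhe41, -1.36 ± 0.97 for Fbxo32, -1.60 ± 1.29 for Anxa5, -1.60 ± 0.70 for Mfsd1 and -1.64 ± 0.98 for Tmed7. For Pdxp it was 0.19 ± 0.54 and for Etnk1 0.17 ± 0.84. These genes were chosen for a small p in the kept embryos, so a smaller difference in the embryos left out follows in part from that choice. With 1 control in that arm, these values are a description.

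Other genes were known from the comparison of all 17 embryos, which holds these 12, so their direction here is likewise no separate support. The palmitoyltransferase gene Zdhhc8 stood at 53.1, 69.2, 46.8 and 32.0 CPM in HU against 14.9 to 40.6 CPM in controls (log2 fold change 1.09 ± 0.30, SE). Arl14epl (-1.10 ± 0.41), Naip1 of the Naip inhibitor-of-apoptosis family (-1.22 ± 0.51), Lnx2 (-0.88 ± 0.30), the general transcription factor Gtf2b (-0.85 ± 0.29) and Zdhhc3 (-0.56 ± 0.25) all had 0 of 4 HU embryos above the control median. Gprc5c, an orphan receptor, was an exception in size: its kept HU embryos held 46.2, 76.1, 52.5 and 77.4 CPM against 26.2 to 75.6 CPM in controls (0.23 ± 0.29), whereas HU embryos over the threshold held 120 to 294 CPM. Shq1, a chaperone of box H/ACA ribonucleoproteins, stood at 0.621, 0.902, 1.43 and 1.91 CPM in HU against 4.20 to 14.5 CPM in controls (-2.92 ± 0.69, DESeq2 adjusted p 0.0210), on 2 to 43 counts per embryo. It was also low over the threshold, at 1.36 to 3.96 CPM in HU and 2.29 CPM in control 3. Imprinted Impact overlapped between groups (0.53 ± 0.45, or 0.10 without HU 2). Naip1 has near-identical paralogs and the Shq1 locus holds pseudogenes, so both sets of counts are uncertain.

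The rule evened out 2-cell-stage transcripts but did not equalise them. Sp110 stood at 129 ± 66.2 CPM in kept HU embryos (SD, n = 4) and 189 ± 112 CPM in kept controls (SD, n = 8), AF067063 at 41.0 ± 14.5 against 72.6 ± 41.5 CPM, and Zfp352, which the rule did not use, at 9.42 to 35.8 against 6.94 to 111 CPM. Log2 fold changes were -0.55, -0.82 and -0.80 here and 1.12, 0.86 and 1.05 over all 17 embryos. Zscan4d had a count in 4 of 8 controls (at most 29) and 2 of 4 HU embryos (at most 3), Zscan4c in 2 of 8 and 1 of 4, and neither passed the filter. Over the threshold, control 3 held 107 counts of Zscan4d and the HU embryos 0 to 18. Of 20 tested members of the 2-cell list, which includes Sp110 and AF067063, 9 lay above and 11 below 0, with a median log2 fold change of -0.10, and 0.55 for the same members over all 17 embryos, a difference that the removal of embryos high in these transcripts fixed in advance.

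None of the genes around the target of HU passed the test. Ribonucleotide reductase is made of Rrm1 with Rrm2 or the p53-induced Rrm2b. Rrm2 stood at 169, 139, 220 and 139 CPM in HU and at 118, 201 and 551 CPM (lowest, median, highest) in controls. Log2 fold changes were 0.15 ± 0.39 for Rrm1, -0.58 ± 0.35 for Rrm2, -0.07 ± 0.19 for Rrm2b, 0.15 ± 0.18 for the checkpoint kinase gene Chek1 and 0.03 ± 0.31 for Cdkn1a, the p21 inhibitor (SE, edgeR adjusted p 0.999 for each). Those of Rrm1, Rrm2b, Chek1 and Cdkn1a changed sign between settings. Of 41 checkpoint and fork-protection genes 23 lay above and 18 below 0 (median 0.04), and 0 had an unadjusted p under 0.05, beside 4.19% of all genes. Of 43 genes of deoxyribonucleotide supply 19 lay above and 24 below 0 (median -0.05). Samhd1, which degrades deoxyribonucleotides, and Mthfd1 of folate metabolism were the 2 higher at an unadjusted p under 0.05 (0.85 and 0.60), and Shmt1 and Nme2 the 2 lower (-0.90 and -0.61), against all-gene shares of 2.14% higher and 2.04% lower. The value of Samhd1 was 0.41 without HU 6, and that of Nme2 ran from -1.03 to -0.40 when each embryo was left out. Of 34 p53 genes 16 lay above and 18 below 0. At an unadjusted edgeR p under 0.05, 1 was higher and 1 lower, against 2.14% and 2.04% of all genes. These were Zmat3, a p53 target, at 1.76 ± 0.55, and Plk2 at -1.35. The Zmat3 value came with HU 1 at 73.5 CPM and the other HU embryos at 12.6 to 15.6 CPM. Controls held 1.54 to 14.1 CPM of Zmat3, and its log2 fold change was 0.70 without HU 1.

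Spike-in scaling moved all genes up together, so list medians are given relative to the all-gene median, first with TMM and then with spike-in scaling. Of 56 replication-machinery genes 21 lay above and 35 below 0 with TMM (relative median -0.07 and -0.07), where all genes split 50% and 50%. They included the origin-licensing genes Cdc6 (-1.03) and Orc1 (-0.63) and the GINS subunit Gins4 (-0.56) as the 3 lower at an unadjusted p under 0.05, beside 2.04% of all genes. Cdc6 stood at 31.3, 8.72, 27.4 and 35.8 CPM in HU against 30.1 to 67.6 CPM in controls. Of 58 mitosis genes 15 lay above and 43 below 0 with TMM (relative median -0.12 and -0.14). Cdk1 (-0.73) and Cdc20 (-0.99) were the 2 lower at an unadjusted edgeR p under 0.05, beside 2.04% of all genes. Over all 17 embryos Cdk1 and Cdc20 had the opposite sign, 0.42 and 0.90, and the embryos over the threshold held more of both, with 355 to 846 CPM of Cdk1 in HU and 483 CPM in control 3. The list of homologous recombination and Fanconi genes, which also holds genes of DNA end joining, split evenly, 23 above and 21 below 0. Its 2 higher at an unadjusted edgeR p under 0.05 were end-joining genes. They were the kinase gene Prkdc (0.72) and the nuclease gene Dclre1c (1.06, or 0.54 without HU 2). Their share was near the 4.19% of all genes called in both directions. Members at an unadjusted p under 0.05 were named after their values were seen, apart from the member with the smallest p in each list.

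Among housekeeping groups, medians slightly below that of all genes were common with both scalings. For cytosolic ribosomal proteins 57 of 78 lay below 0 and 6 had an unadjusted p under 0.05, all lower, beside 2.04% of all genes, led by Rps20 (-0.88 ± 0.27). The list's relative median was -0.19 with TMM and -0.13 with spike-in scaling. For genome-activation housekeeping genes 38 of 44 lay below 0 (relative median -0.22 and -0.20), 6 of them with an unadjusted p under 0.05, against 2.04% of all genes, led by the importin gene Kpna2 (-0.73 ± 0.24). For the proteasome 33 of 45 lay below 0 (relative median -0.18 and -0.15). Psmb3 (-0.68) and Psmd4 (-0.54, or -0.36 without HU 6) were the 2 lower at an unadjusted edgeR p under 0.05, beside 2.04% of all genes. For heat shock genes 23 of 28 lay below 0 (relative median -0.18 and -0.13). For maternal oocyte genes 46 of 59 did (relative median -0.14 and -0.13). For mitochondrially encoded genes 11 of 12 did (relative median -0.37 and -0.26), with mt-Nd1 at -0.47 ± 0.29, or -0.27 without control 1. With the 2-cell level as a covariate in the 12 embryos, the medians were 0.01 for ribosomal proteins, -0.11 for genome-activation genes, -0.08 for the proteasome and -0.35 for mitochondrially encoded genes. Nuclear genes of oxidative phosphorylation were evenly split, with 37 above and 36 below 0. Their member Atp5g1 stood at 97.7, 164, 149 and 161 CPM in HU against 202 to 264 CPM in controls, with no overlap (-0.64 ± 0.18).

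Imprinted genes lay on the other side, with 28 of 38 above 0 (relative median 0.23 with TMM and 0.17 with spike-in scaling). Sfmbt2, imprinted in the placenta, stood at 56.5, 30.1, 30.0 and 61.8 CPM in HU against 9.64 to 42.8 CPM in controls (0.94 ± 0.36), and the noncoding Kcnq1ot1 was the other member at an unadjusted p under 0.05 (1.18 ± 0.56), a value that turned to -0.12 without HU 6. By unadjusted edgeR p under 0.05, 2 imprinted members were higher and 0 lower, against 2.14% and 2.04% of all genes. The summed level of the imprinted list was 1101 to 1406 CPM in HU and 787 to 1280 CPM in controls, so the groups overlapped. Of 34 phosphatidylethanolamine and choline genes 17 lay above and 17 below 0. Of these, 4 were higher and 0 were lower by unadjusted p, against 2.14% and 2.04% of all genes: Etnk1, Ptdss2 (1.02 ± 0.31), Cds2 (1.09 ± 0.42) and Chpt1 (1.07 ± 0.46, or 0.67 without HU 6), enzymes of phospholipid synthesis. In none of the last 3 did all HU embryos lie above all controls. Of 51 p24 and coat genes 25 lay above and 26 below 0, with Tmed7 higher and the COPI subunit Cope lower (-0.99 ± 0.42). Of 36 vitamin B6 genes 16 lay above and 20 below 0: Pdxp and Bcat1 (0.56) were higher and pyridoxal kinase Pdxk (-0.87), Shmt1 and Sptlc2 (-0.57) lower. The 23 Zdhhc palmitoyltransferases and related genes were mixed too, with Zdhhc8 and Abhd17c (0.80) higher and Zdhhc7, Zdhhc3 and Ppt2 (-0.59) lower. Of 46 RNA polymerase II initiation genes 16 lay above and 30 below 0 (relative median -0.11 and -0.06), with Gtf2b and Polr2e (-0.68) the 2 lower. Members named for the p24, vitamin B6, Zdhhc and RNA polymerase II lists were those at an unadjusted edgeR p under 0.05. Over all genes the shares at that p were 2.14% higher and 2.04% lower. In none of the 31 lists did a member pass an adjusted p of 0.05 in edgeR.

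Across the 27 lists with at least 5 tested members, the median was above 0 in 6 and below 0 in 21 in the kept embryos. It was above 0 in 21 and below in 6 over all 17 embryos, and above 0 in 11 in the same 12 embryos with the 2-cell level as a covariate. The sign of a list's small median thus depended both on the embryos compared and on the model. Spike-in scaling gave 26 medians above 0, along with the all-gene median of 0.21. Relative to that median, 21 lists lay below all genes with both scalings and 3 above with both, namely the imprinted, Zdhhc and nuclear oxidative phosphorylation lists. The Zdhhc median was -0.034 without HU 8, and that of nuclear oxidative phosphorylation -0.0064 with plain library size.

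**Figure D5:**
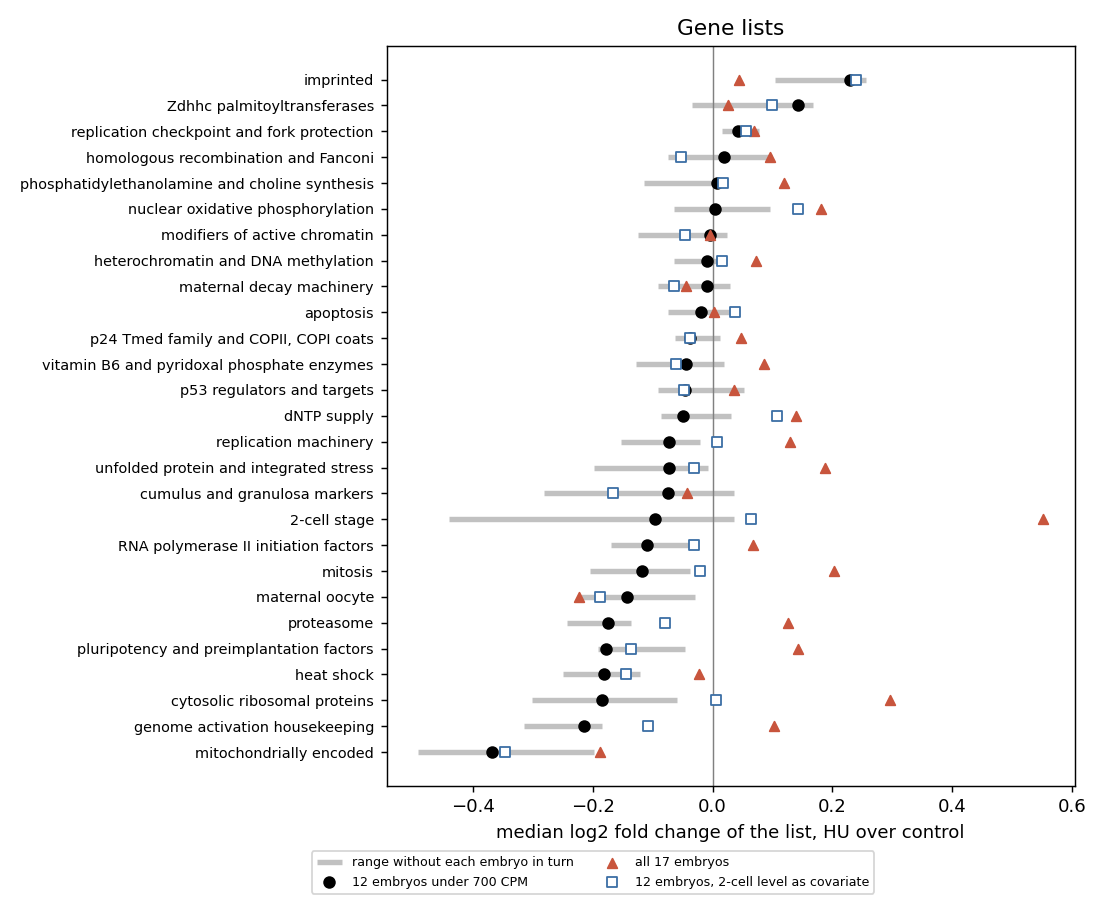
Median log2 fold change of HU over control (x axis) for the 27 gene lists (y axis): the 12 kept embryos (black circles), the range when each embryo is left out (grey bars), all 17 embryos (red triangles) and the 12 embryos with the 2-cell level as a covariate (open squares). Ribosomal proteins move from -0.19 in the kept embryos to 0.30 over all 17, and with spike-in scaling, not drawn, 26 of the 27 medians lie above 0, as does the median of all genes.

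Whether the kept HU embryos were less alike than the kept controls depended on the embryos compared. The mean pairwise distance (1 minus the Spearman correlation over genes) was 0.168 within HU and 0.138 within controls, a difference of 0.0293 (2-sided exact permutation p = 0.158 over 495 splits of the 12 embryos). Without HU 2 the difference was -0.00353, without control 1 it was 0.0355 (exact permutation p = 0.0485) and over all 17 embryos 0.0315 (exact permutation p = 0.0297). HU 2 had the lowest mean correlation with the other kept embryos (0.807), and pairs of kept embryos ranged from 0.786 to 0.891. Control 8 was the closest embryo of 3 of the 4 HU embryos and of 6 of the 8 controls.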

How the data were processed

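Single embryos and cumulus cells were sequenced by Smart-seq2. The mm10 build, STAR 2.7.3a, R 4.0.2 and FastQC are named, per the submitters' processing notes; which program counted reads, on which annotation and strand, is not given in the sources. The authors deposited a table of counts per gene and a table of FPKM (counts per length and library size); FPKM served only to rank list members by abundance and to check the table. The tables hold 24448 genes and 92 spike-in RNAs; the spike-ins stayed out of library sizes and tests.

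The counts of 12 embryos (8 control, 4 HU) were filtered with filterByExpr, TMM-scaled and tested with edgeR 4.0.16 (quasi-likelihood F test, Benjamini-Hochberg adjustment, threshold 0.05), in R 4.3.3. DESeq2 1.42.0 and limma 3.58.1 (voom) were alternatives, with other scalings, filters, thresholds of 500 and 350 CPM, thinning, a covariate, all 17 embryos and each embryo left out. Single values were compared by exact permutation over 495 splits, which can give no p below 0.00202. The method was tested on simulated data with 12496 genes. Kept libraries held 2302767 to 3757492 counts; without molecular identifiers these are reads, not molecules.

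The members, the gene lists and part of the named genes were chosen with earlier results of these data known. Named genes are the 8 per direction with the smallest p at a mean of at least 10 CPM, since fewer than 5 passed; genes named in an earlier comparison of all 17 embryos; 2-cell genes; the most abundant members and the one with the smallest p of each list; and Rrm1, Rrm2, Rrm2b, Chek1 and Cdkn1a. Others are said to be chosen after their values were seen.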

Additional observations from a re-analysis of the deposited data

Results flagged for a closer look

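Among 192 groups of 4 or 8 kept embryos examined, 20 had 1 embryo far from the others of its group. The gap required is one that normally distributed values reach in about 1 in 20 groups. Whether these CPM values follow that distribution was not tested, and part of the genes were picked for a small p. That rate may therefore not hold here, and the flags are a description. Values are TMM-scaled CPM, with the range of the other embryos of the same group. Anxa5 stood at 181 CPM in HU 1, against 56.2 to 74.3 CPM. In HU 2, Impact was at 159 CPM and elsewhere in the group between 60.5 and 69.8 CPM. AF067063 stood at 19.4 CPM in HU 8, against 46.2 to 49.9 CPM. The rule that chose the embryos used this gene, so its flag is only a description. Zscan4c was at 0.902 CPM in HU 2, on only 3 counts, and at 0 in the other 3 HU embryos. Ythdf1 stood at 89.0 CPM in HU 6, against 26.2 to 32.8 CPM. In HU 1, Zmat3 was at 73.5 CPM and elsewhere in the group between 12.6 and 15.6 CPM. Dnmt3b stood at 188 CPM in HU 6, against 31.6 to 54.5 CPM. In HU 8, Kdm5c was at 17.9 CPM and elsewhere in the group between 32.6 and 33.4 CPM. Kcnq1ot1 stood at 246 CPM in HU 6, against 32.0 to 38.9 CPM. Etnk1 stood at 23.5 CPM in control 6, against 7.17 to 13.8 CPM. In control 1, Zdhhc8 was at 40.6 CPM and elsewhere in the group between 14.9 and 23.8 CPM. Zfp352 stood at 111 CPM in control 5, against 6.94 to 38.4 CPM. In control 4, Zscan4d was at 11.2 CPM and elsewhere in the group between 0.0 and 3.38 CPM. Zscan4c stood at 2.48 CPM in control 9, on only 7 counts, against 0.0 to 0.427 CPM. In control 7, Shmt1 was at 89.1 CPM and elsewhere in the group between 29.4 and 53.4 CPM. Prps1 stood at 594 CPM in control 9, against 163 to 301 CPM. In control 4, Kdm5c was at 115 CPM and elsewhere in the group between 24.4 and 63.5 CPM. Cds2 stood at 38.3 CPM in control 8, against 9.65 to 22.4 CPM. In control 2, Gins4 was at 148 CPM and elsewhere in the group between 77.3 and 110.3 CPM. Bcat1 stood at 207 CPM in control 8, against 68.6 to 125 CPM.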

How the results depend on the processing

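Of the 2390 values of 89 gene results under other settings, 2326 kept direction and side of the threshold, 11 gained a call and 53 changed sign; the cause was not tested. No edgeR call was made except for Fscn1: 1 lower gene without a filter on low counts and 1 without control 4 (0 to 1 lower and 0 to 0 higher when each embryo was left out). DESeq2 called 4 higher and 5 lower. Counts at an unadjusted p depend on how many genes were tested, 12496 in the main setting, where 268 were higher and 255 lower. Genes higher at an unadjusted p under 0.05 numbered 486 with spike-in (ERCC) scaling and 468 in limma-voom, each of 12496. They numbered 608 of 17712 without a filter and 419 of 11476 over all 17 embryos, and 209 to 308 when each embryo was left out. Those lower numbered 45 of 12496 with spike-in scaling and 452 of 17712 without a filter, and 231 to 400 when each was left out, the most without HU 2. With a mean CPM of at least 10, 21 of 8916 genes had every HU embryo above every control and 21 had every HU embryo below. In the main setting these were 39 (0.312%) and 28 (0.224%) of 12496. The numbers 1, 2, 6 and 8 are shared by HU and control embryos. Same-numbered deviations correlated at 0.0246, 0.0167, 0.0268 and -0.0291, within the span of differently numbered pairs (-0.067 to 0.065). No pairing by number was seen in these values. Whether same-numbered embryos shared a day was not tested. With the replicate block, on those 8 embryos, 173 of 11689 genes were higher and 141 lower, against 205 and 149 of 11689 in the same embryos without it.

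Log2 fold changes that changed sign were, over all 17 embryos, Lclat1 0.95, Sp110 1.12, AF067063 0.86, Zfp352 1.05, Chek1 -0.062, Prps1 0.40, Cdc6 0.17, Cdk1 0.42, Pdxk 0.14, Polr2e 0.10, Rps20 0.34, Atp5g1 0.038, Kpna2 0.52, Pemt 0.67, Fbxl18 0.19, Nme2 0.35, Cdc20 0.90 and Cope 0.040. With the 2-cell level as a covariate there, they were Sp110 0.067, Zfp352 0.016, Chek1 -0.0053 and Pemt 0.11, and in the 12 embryos Sp110 0.17, Cdkn1a -0.10 and Fbxl18 0.39. Sp110 is part of that level, so its own value there is no result. They were Rrm2b 0.17 and Fbxl18 0.26 with spike-in scaling, Cdkn1a -0.016 and Fbxl18 0.11 with a threshold of 500 CPM, Rrm2b 0.0093 and Fbxl18 0.029 with 350 CPM and Fbxl18 0.0051 after thinning. They were Rrm2b 0.085 and Tnrc18 0.25 with the replicate block and Rrm2b 0.049, Tnrc18 0.13 and Fbxl18 0.073 in those embryos without it. Leaving out each embryo gave ranges of -0.089 to 0.30 (Rrm1), -0.15 to 0.0099 (Rrm2b), -0.033 to 0.23 (Chek1), -0.091 to 0.25 (Cdkn1a), -0.57 to 0.047 (Tnrc18), -0.47 to 0.23 (Fbxl18) and -0.12 to 1.46 (Kcnq1ot1).

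List medians moved by more than their spread to 0.083 (maternal oocyte), 0.18 (maternal decay machinery), 0.21 (checkpoint), 0.17 (dNTP supply), 0.15 (replication machinery), 0.21 (recombination), 0.16 (p53), 0.13 (p24 and coats), 0.18 (vitamin B6), 0.16 (RNA polymerase II), 0.086 (ribosomal proteins), 0.25 (nuclear oxidative phosphorylation), 0.060 (proteasome), 0.085 (heat shock), 0.19 (apoptosis), 0.19 (heterochromatin), 0.16 (active chromatin), 0.11 (pluripotency) and 0.015 (genome activation housekeeping) with spike-in scaling, which moved the median of all genes from 0.00 to 0.21 as well. Over all 17 embryos they were 0.55 (2-cell stage), 0.14 (dNTP supply), 0.047 (p24 and coats), 0.067 (RNA polymerase II), 0.20 (mitosis), 0.30 (ribosomal proteins), 0.18 (nuclear oxidative phosphorylation), 0.13 (proteasome), 0.19 (unfolded protein), -0.023 (heat shock), 0.14 (pluripotency) and 0.10 (genome activation housekeeping). With the covariate, chosen for lists after seeing the data, one was 0.11 (dNTP supply), and with a mean CPM of at least 10 one was -0.10 (pluripotency). Leaving out each embryo gave -0.034 to 0.17 (Zdhhc palmitoyltransferases), -0.13 to 0.024 (active chromatin) and -0.19 to -0.045 (pluripotency). The distance within HU minus that within controls was 0.0315 over all 17 embryos (exact permutation p = 0.0297) and -0.00353 to 0.0441 when each embryo was left out: it was negative without HU 2 and had an exact permutation p of 0.0485 without control 1. Genes with few counts, such as Shq1, are limited by depth.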

Other observations

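Several of the genes that stood apart lie close together; they were picked after their values were seen and no test was made. Wipi2, Fscn1 and Rnf216, all lower in the kept HU embryos, lie within 485.3 kb of chromosome 5 (142627698 to 143112994, GENCODE M21 on GRCm38), which holds 6 tested genes. Fscn1 and Rnf216 are 17707 bases apart. The other 3 tested genes there had log2 fold changes of -0.60 ± 0.24 (Actb, cytoplasmic actin, unadjusted edgeR p 0.0237), -0.26 ± 0.56 (Tnrc18) and -0.07 ± 0.53 (Fbxl18). Actb averaged 355 ± 114 CPM (SD) over the 8 controls and 235 ± 56.4 CPM (SD) over the 4 HU embryos.

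On chromosome 3, Bbs7, a subunit of the ciliary BBSome, lies near Anxa5 and 1810062G17Rik. Bbs7 stood at 19.2, 18.3, 5.42 and 5.72 CPM in HU 1, 2, 6 and 8 and at 0 to 5.12 CPM in the kept controls, so the groups did not overlap, by a narrow margin (log2 fold change 2.14 ± 0.74, SE, unadjusted edgeR p 0.00918). Exosc9 (0.81 ± 0.70) and Ccna2 (0.08 ± 0.18), which overlap each other on opposite strands, lie in the same 164.6 kb.

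The stress genes with the smallest p in their lists were high in some HU embryos only. Herpud1, of endoplasmic reticulum protein quality control, stood at 0.621, 153, 15.1 and 32.0 CPM in HU 1, 2, 6 and 8 and at 1.05 to 22.9 CPM in controls. The small heat shock gene Hspb8 stood at 0, 76.7, 0 and 31.6 CPM, against 0 to 5.40 CPM in controls. In both genes HU 2 was the highest embryo and HU 8 the next.

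Markers of other cell types were low. Summed theca markers stood at 0 to 14.7 CPM in controls and 2.57 to 12.7 CPM in HU, immune markers at 6.56 to 32.6 and 8.01 to 15.9 CPM, endothelial markers at 29.8 to 64.2 and 43.1 to 49.0 CPM, and erythroid markers at 0 to 3.50 and 0 to 3.05 CPM.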
